A study of Mus musculus with 12 samples.

Results

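Aminoacyl-tRNA synthetases are the enzymes that load each amino acid onto its own transfer RNA, so that the ribosome can read the genetic code. The rows of the deposited values whose mouse gene symbol is an amino acid letter followed by ars, with an optional number or subunit letter, were taken as this gene family. The rule gave 33 of the 14159 genes listed, namely 18 genes for cytosolic enzymes and 15 genes for mitochondrial enzymes, whose symbols end in 2. All 33 passed the filter on low values, an average normalized count of 10 or more across the 12 libraries, which left 13404 genes for testing. The cytosolic set was Aars, Cars, Dars, Farsa, Gars, Hars, Iars, Kars, Lars, Mars1, Nars, Qars, Rars, Sars, Tars, Vars, Wars and Yars. The mitochondrial set included Aars2, Cars2, Fars2, Hars2, Iars2, Lars2, Mars2, Nars2, Pars2, Rars2, Sars2, Tars2, Vars2 and Wars2. Gars and Kars were kept with the cytosolic genes, although each is known to give the mitochondrial enzyme as well. Farsb and Yars2 were not analysed here.

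Whole inguinal white adipose tissue (iWAT) was profiled by sequencing of polyadenylated RNA from 4 groups of mice on the C57BL/6 background, with 3 biological replicates, numbered 0 to 2, in each group. Atf4AKO mice carried Atf4 flox alleles and Adipoq-Cre, a recombinase driven by the adiponectin promoter, which is active in adipocytes and not in the other cells of the fat pad. Atf4WT mice were littermates with Atf4 fl/fl alleles. Each genotype was sampled at room temperature (RT, 22 °C) and after 24 h at 5 °C (cold). The age and sex of these mice and the floxed exons are not given in the sources used here.

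Cells hold separate sets of synthetases for the cytosol and for the mitochondrial matrix, and nuclear genes encode both sets. ATF4 is the transcription factor of the integrated stress response, which is switched on when amino acids run short, when proteins misfold or when mitochondria are stressed. It binds together with a C/EBP partner at a composite element, and genes of amino acid uptake, serine and one-carbon metabolism and many cytosolic synthetases are known as its targets. The mitochondrial synthetases serve translation of the respiratory chain subunits encoded by mitochondrial DNA and are not commonly named as ATF4 targets. Of the 18 cytosolic genes, 12 are commonly named as ATF4 targets (Aars, Cars, Gars, Iars, Lars, Mars1, Nars, Sars, Tars, Vars, Wars and Yars), and the other 6 are not (Dars, Farsa, Hars, Kars, Qars and Rars).

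The core of the composite element, TGATGNAA, was searched on both strands in windows of 300 bases, 250 before and 50 after the RefSeq start of each gene (GRCm38.p6). A window was at hand for 23 of the 33 genes. Those without a window included Cars, Hars, Lars, Nars, Rars, Vars, Wars, Hars2 and Pars2. The core was found in 5 of the 11 cytosolic genes with a window (Aars, Gars, Iars, Tars and Yars) and in 0 of the 12 mitochondrial genes with a window. All 5 were among the 7 commonly named ATF4 targets with a window, and 0 of the 4 other cytosolic genes held it. Of all 32851 windows of this length 3.97% held the core, and of the 11234 genes of the deposited values with a window 2.82% did. A count of 0 in 12 or in 4 windows is near these shares, so it sets neither list apart from all genes. Sites of the 5 cytosolic genes are shown because 5 of 11 is above these shares. The core is in capitals, and each site is read along its gene from 5′ to 3′. A core on the opposite strand therefore reads TTNCATCA.
Aars (chr8:111033840-111033869, plus strand): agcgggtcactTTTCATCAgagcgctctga
Gars (chr6:55037960-55037989, plus strand): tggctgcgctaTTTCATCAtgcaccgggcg
Iars (chr13:49682126-49682155, plus strand): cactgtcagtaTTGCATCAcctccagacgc
Tars (chr15:11399655-11399684, minus strand): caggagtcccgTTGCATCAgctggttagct
Yars (chr4:129189895-129189924, plus strand): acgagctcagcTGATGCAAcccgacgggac
The Gars site and the Tars site lay before the start, with the core ending 22 and 7 bases upstream. The Aars site, the Iars site and the Yars site lay within the first 50 transcribed bases. The Gars and Tars promoters are given in full up to the start, since their cores lay close to it.
Gars promoter (chr6:55037751-55038000, plus strand): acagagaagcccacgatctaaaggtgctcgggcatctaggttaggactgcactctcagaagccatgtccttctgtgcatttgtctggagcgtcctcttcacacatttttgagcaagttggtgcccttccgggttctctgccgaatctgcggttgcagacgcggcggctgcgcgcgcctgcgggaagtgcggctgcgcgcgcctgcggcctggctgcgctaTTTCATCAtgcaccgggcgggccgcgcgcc
Tars promoter (chr15:11399659-11399908, minus strand): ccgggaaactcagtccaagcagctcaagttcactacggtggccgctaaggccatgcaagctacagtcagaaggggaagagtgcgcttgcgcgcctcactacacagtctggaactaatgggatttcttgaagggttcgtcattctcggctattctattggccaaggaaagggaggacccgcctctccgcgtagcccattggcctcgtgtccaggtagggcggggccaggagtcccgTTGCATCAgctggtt
A match of these letters is a description of the window and does not show binding, and the lack of a match says only that these letters were not in the window.

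The libraries held 25719476 to 29105147 reads on the listed genes, and every replicate pair differed by more than counting noise. Values below are normalized counts, reads per gene after division by each library's DESeq2 size factor, and fold changes are on the log2(normalized count + 1) scale, tested with limma and adjusted by Benjamini and Hochberg over all 13404 genes. Atf4 itself stood at 5669, 4670.3 and 4107 in the Atf4WT RT libraries and at 1594, 1469.7 and 1639 in the Atf4AKO RT libraries, and at 7644, 7511 and 5756 and 1578, 788 and 1179.8 after cold. The genotypes did not overlap at either temperature, and after cold the log2 fold change was -2.60 (SE 0.22, adjusted p = 0.000644). The 10 adipocyte markers had a mean log2 level of 15.76 to 16.32 in all libraries. All 26 B and T cell markers listed (11 and 15 genes) were lower in Atf4AKO cold by more than 1.5-fold at an unadjusted p under 0.05, and their mean log2 level was 7.07 to 9.55 in the Atf4WT cold libraries and 3.70 to 5.11 in the Atf4AKO cold libraries, and at RT it was 4.01 to 6.93 in Atf4WT and 4.18 to 5.26 in Atf4AKO. The summed normalized count of these markers was 6010 to 24829 in Atf4WT cold and 467.1 to 1468 in Atf4AKO cold. Muscle markers (3 listed) averaged 12.01 in Atf4WT RT replicate 2 and 10.56 in Atf4WT cold replicate 0, against 3.68 to 7.52 in the other libraries. The 6 proliferation markers were all below 0 between the genotypes after cold (median log2 fold change -1.05), 3 of them lower by the rule above, with a mean log2 level of 6.08 to 7.24 in Atf4WT cold and 4.34 to 6.87 in Atf4AKO cold. In whole tissue, fewer cells of a type and less RNA per cell cannot be told apart.

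The cytosolic synthetase genes were expressed at higher levels than the mitochondrial ones. Per kilobase of annotated exon sequence (GENCODE vM21), the median level of the 18 cytosolic genes was 364 normalized counts in Atf4WT RT, and that of the 15 mitochondrial genes was 145. After cold, the medians were 399 and 175 in Atf4WT and 389 and 175 in Atf4AKO. The highest level at RT was that of Gars, the glycine enzyme of both compartments, at 1089 ± 93.9 per kilobase (SD, n = 3) in Atf4WT, followed by Nars, the asparagine enzyme, at 835 ± 22.9. The difference between these levels was larger than their SDs. Among the mitochondrial genes the highest was Iars2, the isoleucine enzyme, at 491 ± 57.7, and the lowest of all members was Mars2, the methionine enzyme, at 12.3 ± 4.03. The exon length is the union over annotated transcripts, so a gene with many rarely used exons is placed too low.

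A part of the family rose with cold in both genotypes, among the cytosolic and among the mitochondrial genes. In Atf4WT iWAT, 6 of the 18 cytosolic genes (33.3%) rose with an adjusted p under 0.05, and 0 fell, against 17.0% of all tested genes that rose and 14.9% that fell. Of the 15 mitochondrial genes 5 (33.3%) rose. By the rule of the study (fold change over 1.5 and unadjusted p under 0.05), 4 cytosolic and 4 mitochondrial genes were higher and 0 were lower, against 10.9% and 10.3% of all genes. Lars2, whose cold libraries were split as described below, was among these 4 mitochondrial genes. The cytosolic genes had a median log2 fold change of 0.15 and the mitochondrial genes one of 0.28, against 0.00 over all genes.

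In Atf4AKO iWAT, 4 of the 18 cytosolic genes (22.2%) and 6 of the 15 mitochondrial genes (40.0%) rose with an adjusted p under 0.05, against 14.8% of all genes, and 0 cytosolic genes fell, against 11.0%. By the rule of the study, 3 cytosolic and 4 mitochondrial genes were higher and 0 were lower, against 8.3% and 8.92% of all genes. Lars2 was again among the 4 mitochondrial genes. The cytosolic genes had a median log2 fold change of 0.10 and the mitochondrial genes one of 0.36, against -0.03 over all genes. The 11 genes that rose in Atf4WT and the 10 that rose in Atf4AKO shared 9 genes, 81.8% of the first list and 90.0% of the second. The same overlap over all tested genes is not given here, so these shares are not set against it. In the scatter plot of the cold responses most genes lie near the line of equal response. The cytosolic Vars, Aars, Cars and Yars and the mitochondrial Sars2 lie farthest below it.

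**Figure D1:**
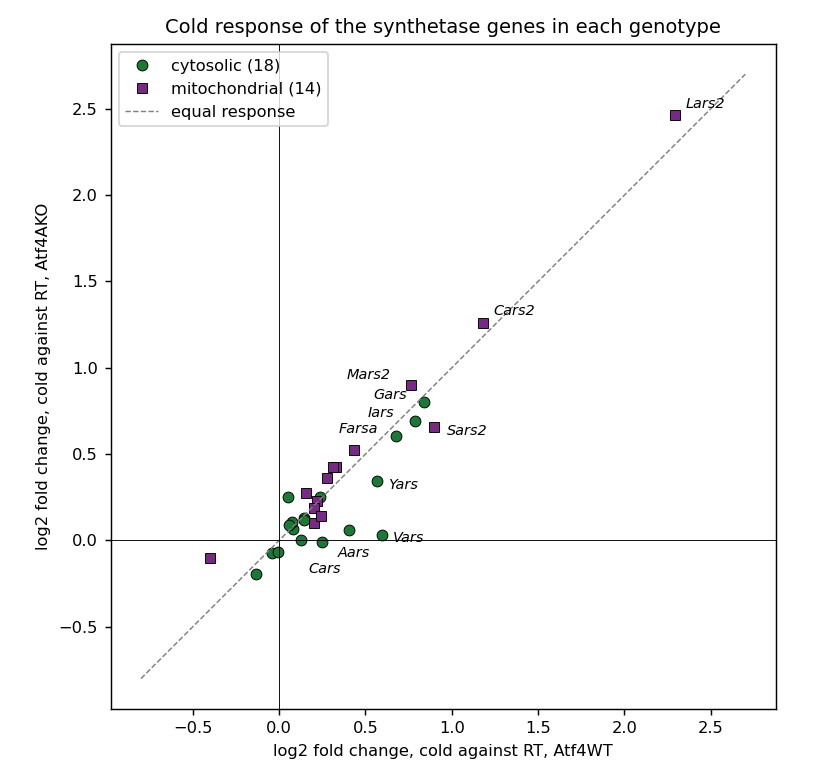
Log2 fold change of 32 synthetase genes after 24 h of cold against RT in Atf4WT (x axis) and in Atf4AKO (y axis) iWAT; green circles are cytosolic and purple squares mitochondrial enzymes, and the dashed line marks equal responses. Gars, Iars, Farsa, Cars2 and Mars2 lie in the upper right with similar values on both axes. Sars2 is at 0.90 in Atf4WT and 0.65 in Atf4AKO, and Vars is at 0.60 in Atf4WT and 0.033 in Atf4AKO.

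Gars showed the clearest cold response of the cytosolic genes. Its normalized count was 3504, 3622 and 3066 in Atf4WT RT and 6192, 6427 and 5590.1 in Atf4WT cold, and 3613, 3835 and 3177 in Atf4AKO RT and 5673, 6552 and 6257 in Atf4AKO cold. Every cold library lay above every RT library. The log2 fold change was 0.84 (SE 0.10, adjusted p = 0.000230) in Atf4WT and 0.80 (SE 0.10, adjusted p = 0.000350) in Atf4AKO. Iars, the cytosolic isoleucine enzyme, rose in the same way, from 631, 627 and 751 to 996, 1088 and 1409.8 in Atf4WT and from 679, 611 and 650.3 to 1002, 942 and 1207 in Atf4AKO. Iars changed by 0.79 and 0.69 on the log2 scale, with adjusted p = 0.00207 and 0.00481, and with the lymphocyte level as a covariate the value in Atf4WT was 0.41 (adjusted p = 0.181). Both genes carry the element core near their start. Farsa, the catalytic subunit of the phenylalanine enzyme and no commonly named ATF4 target, rose from 698, 664 and 605 to 1021, 1061 and 1058 in Atf4WT and from 626, 693 and 744 to 1069, 1001 and 1058 in Atf4AKO, by 0.68 and 0.60 on the log2 scale (adjusted p = 0.000390 and 0.000814). No core was found in its window.

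A further 3 cytosolic genes rose in Atf4WT iWAT. Yars, the tyrosine enzyme, went from 1463, 1256 and 1311 at RT to 2066, 2016 and 1883 after cold, a log2 fold change of 0.57 (SE 0.079, adjusted p = 0.000592), and also rose in Atf4AKO iWAT, from 1245, 1304 and 1148 to 1571, 1568 and 1542 (log2 fold change 0.34, adjusted p = 0.00927). Aars, the alanine enzyme, went from 3108, 3243 and 2511 to 3864, 4044 and 3754 in Atf4WT (log2 fold change 0.40, adjusted p = 0.0236), and in Atf4AKO it was 3081, 3198 and 2410.2 at RT and 2875, 3049 and 3082 after cold (log2 fold change 0.062, adjusted p = 0.730). The cold libraries of Atf4AKO lay inside the range of their RT libraries. The adjusted p of Aars in Atf4WT was 0.0808 without RT replicate 2, 0.0501 without cold replicate 0 and 0.0735 without cold replicate 1. Vars, the valine enzyme, had 1289.9, 1163 and 1516 at RT and 1561, 2126 and 2375 after cold in Atf4WT, a log2 fold change of 0.60 (SE 0.15, adjusted p = 0.0115), and 1253, 1276 and 1507 and 1345, 1429 and 1344 in Atf4AKO (log2 fold change 0.033, adjusted p = 0.888). Within Atf4WT, Vars was highest in RT replicate 2 and in cold replicates 1 and 2, which also had the highest lymphocyte levels of their groups (6.93, 9.08 and 9.55). With the lymphocyte level as a covariate the log2 fold change of Vars in Atf4WT was 0.12 (adjusted p = 0.683).

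The other 12 cytosolic genes did not pass the adjusted threshold in either genotype, and their log2 fold changes ran from -0.13 for Lars to 0.25 for Cars in Atf4WT and from -0.20 for Lars to 0.25 for Dars in Atf4AKO. This group held the lysine enzyme Kars, the glutamine enzyme Qars and the serine enzyme Sars, whose values ran from -0.075 (Kars, Atf4AKO) to 0.087 (Sars, Atf4AKO) over both genotypes. The median log2 fold change of the 12 named genes was 0.20 in Atf4WT and 0.08 in Atf4AKO, and that of the other 6 was 0.06 and 0.18.

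**Figure D2:**
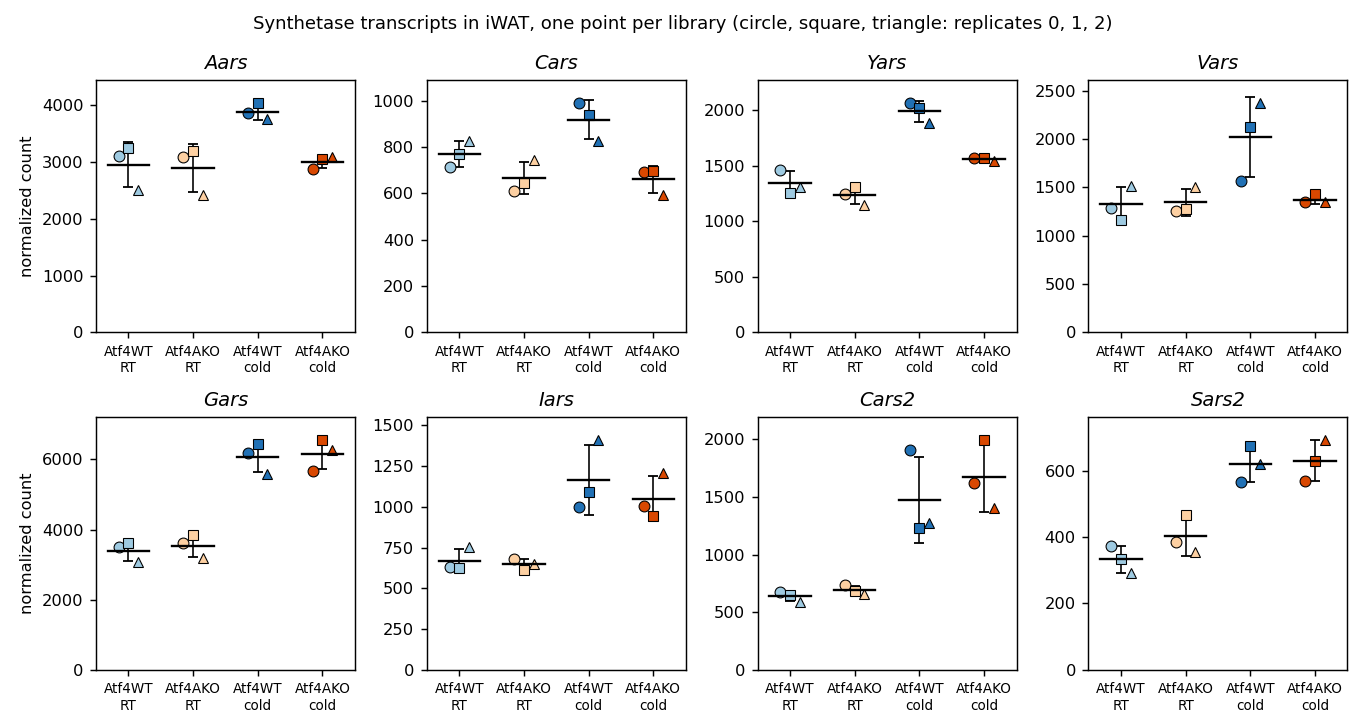
Normalized counts of 8 synthetase genes in each of the 12 libraries, with the 4 groups on the x axis, 1 symbol per replicate, a bar at the group mean and an error bar of 1 SD. Aars, Cars, Yars and Vars were lower in all Atf4AKO cold libraries than in any Atf4WT cold library, whereas Gars, Iars, Cars2 and Sars2 overlapped between the genotypes after cold.

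Among the mitochondrial genes, Cars2 had the largest fold change of those that rose. This gene for the cysteine enzyme went from 673, 652 and 589 to 1904, 1234 and 1278 in Atf4WT, a log2 fold change of 1.18 (SE 0.17, adjusted p = 0.000647), and from 732, 684 and 655 to 1619, 1994 and 1403 in Atf4AKO, a log2 fold change of 1.26 (SE 0.17, adjusted p = 0.000512). Its cytosolic counterpart Cars did not pass the threshold in either genotype (0.25 with adjusted p = 0.105, and -0.011 with adjusted p = 0.949). Sars2, the mitochondrial serine enzyme, rose from 375, 333 and 291 to 566, 674 and 621 in Atf4WT and from 385, 467 and 354 to 571, 629 and 693 in Atf4AKO. The log2 fold changes of Sars2 were 0.90 and 0.65 (adjusted p = 0.000904 and 0.00583), against 0.058 and 0.087 for cytosolic Sars.

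Mars2, at low counts, went from 129, 189 and 99.2 to 205, 229 and 253 in Atf4WT and from 149, 132 and 109 to 199.8, 269.8 and 263 in Atf4AKO, with log2 fold changes of 0.76 and 0.90 (adjusted p = 0.0259 and 0.0153). Rars2, the arginine enzyme, rose by 0.43 and 0.52 (adjusted p = 0.00509 and 0.00226) and Aars2, the alanine enzyme, by 0.33 and 0.42 (adjusted p = 0.0396 and 0.0169). Nars2, the asparagine enzyme, rose in Atf4AKO (0.42, adjusted p = 0.0343) and changed by 0.31 (adjusted p = 0.0913) in Atf4WT. The calls of Cars2, Sars2 and Rars2 held when any 1 library was left out, and those of Mars2, Aars2 and Nars2 did not in every case. With 1 library left out, the highest adjusted p in Atf4WT was 0.0890 for Mars2 (without RT replicate 2) and 0.109 for Aars2 (without RT replicate 2), and in Atf4AKO it was 0.0547 for Mars2 (without cold replicate 1), 0.0689 for Aars2 and 0.114 for Nars2 (both without RT replicate 0).

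Lars2, the mitochondrial leucine enzyme (chr9:123366927-123462666, plus strand, GRCm38), behaved unlike the rest of the family. At RT its normalized count was 2306, 2159 and 1569 in Atf4WT and 2179, 2207 and 1829 in Atf4AKO. After cold it was 22331, 22669 and 1812 in Atf4WT and 23316, 25084 and 2533 in Atf4AKO, in the order of replicates 0, 1 and 2. In both genotypes, then, cold replicates 0 and 1 stood far above every RT library, while cold replicate 2 stood close to the RT libraries. With this spread the log2 fold changes of 2.29 (SE 0.98) in Atf4WT and 2.46 (SE 0.98) in Atf4AKO gave adjusted p = 0.0967 and 0.0871. With the replicate number as a block the adjusted p was 0.0255 and 0.0226. Without cold replicate 2 of both genotypes, a choice made after these values were seen, the log2 fold changes were 3.50 and 3.55 (adjusted p = 4.98e-05 and 2.9e-05). The same split was then counted over all genes by a rule made after the Lars2 values were seen. Of the 13404 genes tested, 4 had all replicates 0 and 1 of the cold groups more than 1 log2 unit above both replicates 2, with gaps of 3.14 for Lars2, 1.33 for Gmpr, 1.20 for Nnat and 1.03 for Crtac1. Because the rule was made from Lars2, its widest gap and the small number of genes are a description and no test. Gmpr, like Lars2, was higher in cold replicates 0 and 1 (949 and 1017.5 in Atf4WT, 780 and 2188 in Atf4AKO) than in every RT library. In cold replicate 2 Gmpr was at 310 and 254. Nnat and Crtac1, unlike Lars2, were lower after cold than at RT in every library. The labels give no batch or date for the replicate numbers, and the cause of the split was not tested.

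**Figure D3:**
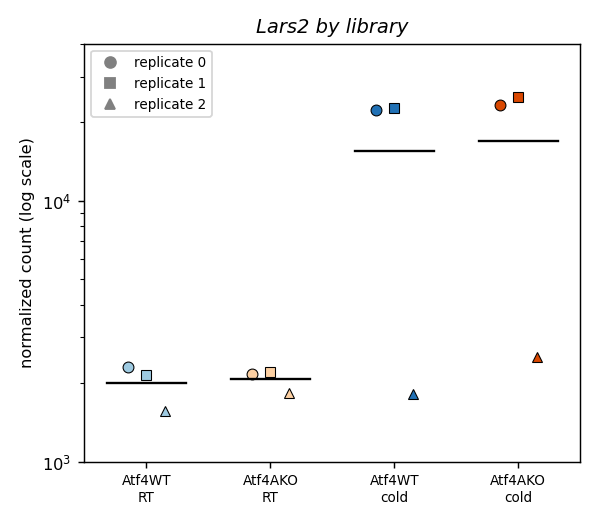
Normalized count of Lars2 in each library on a log scale, with the 4 groups on the x axis, 1 symbol per replicate and a bar at the arithmetic mean of the group. The RT libraries lie between 1569 and 2306, cold replicates 0 and 1 lie between 22331 and 25084 in both genotypes, and cold replicate 2 lies at 1812 in Atf4WT and 2533 in Atf4AKO.

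At RT, no synthetase gene passed a test between the genotypes in the main fit. In limma 0 of the 33 genes had an adjusted p under 0.05 and 0 had an unadjusted p under 0.05, against 1.53% of all genes, and the medians (log2 fold change) were -0.02 over the cytosolic and 0.08 over the mitochondrial genes. Of the 12 commonly named ATF4 targets 10 were below 0 (median -0.06), and the other 6 cytosolic genes were all above it (median 0.06). Over all 13404 genes, 6462 were below 0 and 6942 above. The smallest p-values were those of Sars2 (0.27, 95% interval -0.031 to 0.57) and Cars (-0.21, 95% interval -0.46 to 0.030).

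After cold, 5 cytosolic genes were lower in Atf4AKO iWAT at an unadjusted p under 0.05 and no mitochondrial gene was, a difference between the classes that was not itself tested. In limma 0 of the 33 genes passed an adjusted p under 0.05, and 0 passed the rule of the study, against 6.4% of all genes. At an unadjusted p under 0.05, 5 of the 18 cytosolic genes (27.8%) were lower in Atf4AKO iWAT and 0 were higher, against 7.98% and 3.74% of all genes, and 0 of the 15 mitochondrial genes were lower or higher. The groups did not overlap for 6 cytosolic genes with lower and 1 with higher values in Atf4AKO, and for 4 mitochondrial genes with higher values, against 7.84% of all genes lower and 8.68% higher. The 5 genes and the sixth that did not overlap, Lars, all belonged to the 12 commonly named ATF4 targets. Of these 12 genes 11 had a log2 fold change below 0, against 10 at RT (5449 and 6462 of all 13404 genes). These 12 had a median log2 fold change of -0.15, the other 6 cytosolic genes one of 0.03 and the mitochondrial genes one of 0.12, against 0.05 over all genes. DESeq2's Wald test on the recovered reads gave 3 genes with an adjusted p under 0.05, Cars, Yars and Vars, against 591 of all 14159 genes. In edgeR's quasi-likelihood test 0 members had an adjusted p under 0.05, against 3 of all 13404 genes. At an unadjusted p under 0.05 that test gave 5 members lower and 1 higher (Dars), against 1748 of all genes in either direction.

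**Figure D4:**
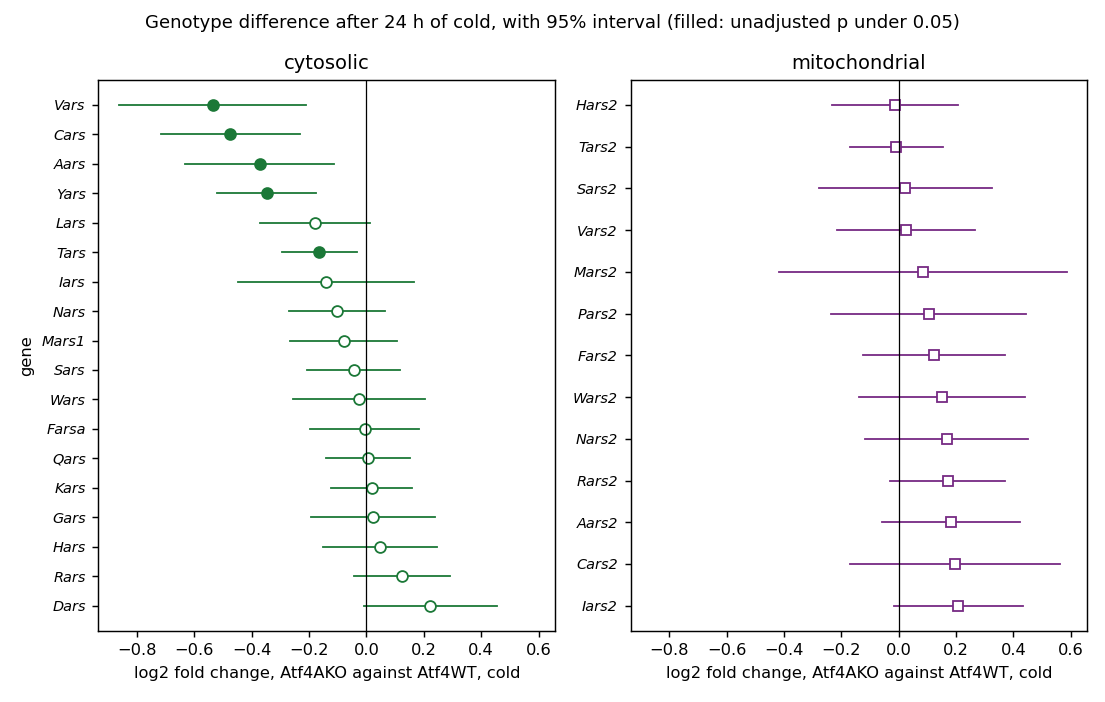
Log2 fold change of Atf4AKO against Atf4WT iWAT after 24 h of cold with its 95% interval from limma, for the 18 cytosolic genes and for 13 mitochondrial genes (Lars2, whose interval runs from -1.93 to 2.39, is left out). Filled symbols mark the 5 genes with an unadjusted p under 0.05, which are all cytosolic and below 0, and the intervals of all 13 mitochondrial genes cross 0.

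Cars, the cytosolic cysteine enzyme (chr7:143557230-143600090, minus strand; gene spans are those of GENCODE vM21, whose starts can lie before the RefSeq starts of the windows), had 991, 937 and 827 in Atf4WT cold and 693, 695 and 593 in Atf4AKO cold. The Atf4AKO mean was 71.9% of the Atf4WT mean, with a log2 fold change of -0.48 (SE 0.11, adjusted p = 0.0755). At RT the values were 714, 771 and 828 and 609.8, 646 and 742, which overlapped. Yars (chr4:129189760-129219607, plus strand), with the core just past its RefSeq start, was 78.5% of Atf4WT after cold, with a log2 fold change of -0.35 (SE 0.079, adjusted p = 0.0714); all Atf4AKO cold libraries still lay above all RT libraries. Aars (chr8:111033144-111057664, plus strand), with a core past its RefSeq start, was 77.2% of Atf4WT, with a log2 fold change of -0.37 (SE 0.12, adjusted p = 0.190), and its Atf4AKO cold values of 2875, 3049 and 3082 were within the range of the RT libraries. Tars, the threonine enzyme (chr15:11382301-11399665, minus strand), differed least, at 1587, 1572 and 1639 and 1418, 1406 and 1457, 89.2% of Atf4WT, with a log2 fold change of -0.16 (SE 0.059, adjusted p = 0.273). Its unadjusted p was 0.0176, and 0.0518 without Atf4AKO cold replicate 1.

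Vars (chr17:35000987-35016322, plus strand) had the lowest ratio, 67.9% of Atf4WT, with a log2 fold change of -0.54 (SE 0.15, adjusted p = 0.125), and without Atf4WT cold replicate 0 the value was -0.71 (adjusted p = 0.0111). The lymphocyte level did not overlap between the cold groups either, and its part in these results was not tested beyond a fit with that level as a covariate. The part of the proliferation markers, which were lower as well, was not tested. In that fit the log2 fold change was 0.041 for Vars, -0.45 for Cars, -0.47 for Yars, -0.72 for Aars and -0.19 for Tars. The adjusted p was 1.00 for each of the 5 in limma, and the unadjusted p was below 0.05 for Yars and Aars and above it for Vars, Cars and Tars. The value of Vars was thus near 0, and those of the other 4 stayed below 0. Because the lymphocyte level did not overlap between the cold groups, this fit cannot tell genotype and lymphocyte level apart. No direction is read from it. Without the covariate, Gars and Iars, which hold the core as Yars, Aars and Tars do, had log2 fold changes of 0.021 (95% interval -0.19 to 0.24) and -0.14 (95% interval -0.45 to 0.16). In that main fit the bounds of Gars leave out a loss of the size seen in Cars (-0.48). Over all the fits the value of Gars ran from -0.30 to 0.079, so these bounds hold for the main fit only.

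Most mitochondrial genes had a log2 fold change above 0 between the genotypes after cold, and none had an unadjusted p under 0.05 in the main limma fit. In other fits some did, with a value as low as 0.0149 for Cars2 in limma with 1 library left out. The lowest adjusted p of Cars2 over those leave-out fits was 0.187. Of the 15, 13 were above 0, against 7955 of all 13404 genes, and the 4 whose groups did not overlap were Aars2, Iars2, Nars2 and Wars2. All 10 adipocyte markers were also above 0 in this comparison, with a median log2 fold change of 0.18 and 0 at an unadjusted p under 0.05, and their part in the values of the mitochondrial genes was not tested. With the lymphocyte level as a covariate the mitochondrial median was -0.23, against 0.12 without it, beside -0.19 for the cytosolic genes. Genotype and lymphocyte level cannot be told apart in that fit. Iars2 had 4842, 4763 and 4913 in Atf4WT cold and 5340.2, 5458 and 5994 in Atf4AKO cold, a log2 fold change of 0.21 (SE 0.10, adjusted p = 0.464). The mean log2 level over the mitochondrial genes was 9.78 ± 0.14 in Atf4WT cold and 9.90 ± 0.16 in Atf4AKO cold (SD, n = 3), and 9.35 ± 0.14 and 9.40 ± 0.09 at RT. The mean log2 level over the cytosolic genes was 10.99 ± 0.02 in Atf4WT cold and 10.88 ± 0.02 in Atf4AKO cold, and 10.72 ± 0.05 and 10.70 ± 0.06 at RT. For the cytosolic genes the cold libraries of the genotypes did not overlap (10.97 to 11.01 and 10.86 to 10.90). For the mitochondrial genes they did (9.62 to 9.88 and 9.74 to 10.07), with Lars2 among them. Within the cytosolic set the 12 commonly named ATF4 targets were lower in Atf4AKO cold (11.06 to 11.12 in Atf4WT cold and 10.86 to 10.91 in Atf4AKO cold). The mean over the other 6 cytosolic genes was higher (10.78 to 10.81 and 10.85 to 10.89). Of these 6 genes 5 had a log2 fold change above 0, led by Dars (0.22) and Rars (0.12), and 0 had an unadjusted p under 0.05 in limma. Their median log2 fold change was 0.03, against 0.05 over all genes. The list means were not tested.

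The difference of the cold responses between the genotypes was tested directly as an interaction. Vars alone had an unadjusted p under 0.05 (0.0210), 1 of 33 against 6.92% of all genes, with a difference of -0.56 (SE 0.21, adjusted p = 0.573). The next were Aars at -0.34 (95% interval -0.71 to 0.025) and Yars at -0.23 (95% interval -0.47 to 0.019). It was therefore not shown that the cold response of any member differed between the genotypes. The median difference was -0.05 over the cytosolic and 0.09 over the mitochondrial genes, and 0.03 over all genes.

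Partner genes of the synthetases were measured in the same libraries. Of the scaffold proteins of the cytosolic multi-synthetase complex, Eef1e1 rose with cold in Atf4WT (0.65, adjusted p = 0.00173) and Atf4AKO (0.71, adjusted p = 0.00134), and Aimp1 and Aimp2 had log2 fold changes between -0.03 and 0.06. Of 4 genes of the mitochondrial amidotransferase and formyltransferase, Qrsl1, a subunit of the enzyme that makes mitochondrial glutaminyl-tRNA, rose most, by 1.24 and 1.35 (adjusted p = 7.86e-05 and 5.49e-05). Of 9 mitochondrial translation factors 5 rose in Atf4WT and 4 in Atf4AKO with an adjusted p under 0.05, against 17.0% and 14.8% of all genes, among them the elongation factor Gfm1 (0.78 and 0.92) and the initiation factor Mtif2 (0.46 and 0.70), and 0 fell. Of 4 trans-editing factors, which clear wrongly loaded tRNA, Aarsd1 rose (0.65 and 0.65) and Dtd1 fell (-0.50 and -0.43) in both genotypes. The synthetase genes outside the rule, Eprs, Ears2 and Tarsl2, did not pass the adjusted threshold in any comparison. In limma 0 of these partner genes had an adjusted p under 0.05 between the genotypes after cold, and 1 of them, the amidotransferase subunit Gatc, had an unadjusted p under 0.05 (0.27, adjusted p = 0.248).

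Some other ATF4 targets were lower in Atf4AKO iWAT after cold by more than any synthetase gene. Of 29 listed genes of amino acid supply and stress, 8 were lower in Atf4AKO iWAT after cold by the rule of the study and 0 were higher, against 6.04% of all genes lower. Over the whole list 20 genes had a log2 fold change below 0 and 9 above, against 5449 and 7955 of all 13404 genes. The median of the list was -0.12, close to the -0.15 of the 12 synthetase genes commonly named as targets. On the log2 scale Mthfd2, the mitochondrial one-carbon enzyme, differed by -2.08 (adjusted p = 0.0648), the amino acid carrier Slc7a5 -1.27 (adjusted p = 0.131) and the transcription factor Atf5 -0.97 (adjusted p = 0.0156), the only one of the 29 with an adjusted p under 0.05. Asns, the asparagine synthetase, which is named for a different reaction and is no tRNA enzyme, resembled Gars instead. It rose with cold in Atf4WT (0.75, adjusted p = 0.0102) and in Atf4AKO (0.83, adjusted p = 0.00716) and had a log2 fold change of -0.049 (95% interval -0.45 to 0.35) between the genotypes after cold. The element core was found in 9 of the 25 genes of this list with a window, Asns included, and not in those of Mthfd2 or Atf5. Mthfd2 (261, 536 and 391) and Slc7a5 (107, 142 and 207) were lowest in Atf4WT cold replicate 0, which had the lowest lymphocyte level there. In Atf4AKO cold both were highest in replicate 0, which had the highest level. Atf5 was lowest in Atf4WT cold replicate 2 (8372), which had the highest level. The part of the lymphocyte level in this list was not tested.

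Some counts carry limits of their own. Hars and Hars2 overlap at their starts on opposite strands, and the strand setting of the read counting is not stated, so reads of the shared part may have gone to either gene or to none. The labels call the replicates biological without saying whether each is 1 mouse, so the p-values measure the spread between these samples.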

How the data were processed

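Polyadenylated RNA of iWAT was sequenced in 12 libraries, 3 for each of 4 groups. The deposited values are a normalized signal: the authors used SOAPnuke for read filtering, STAR for alignment to mm10, featureCounts for unique reads per gene and pyDESeq2 for the size factors that divide them. Tool versions and the strand setting are not given in the sources used here. Dividing each column by its smallest value gave whole reads (largest deviation 0.000313, 100% of values within 0.01), and only genes with reads in every library are listed. No column of sample values was left out.

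limma 3.58.1 in R 4.3.3 (lmFit, eBayes with a trend) was fitted to log2(normalized count + 1) of the 13404 genes averaging 10 or more, with 4 group means and Benjamini-Hochberg adjustment over all tested genes. Genes were called as in the methods of the study, by an unadjusted p under 0.05 together with a change above 1.5-fold, and the adjusted p is given beside it; in the text, rose and fell mean an adjusted p under 0.05. The fit was tested on simulated data. Alternatives were pseudocounts of 0.5 and 5, no filter, a mean of 50, only the groups compared, 75th percentile scaling, a replicate block, the lymphocyte level as a covariate, leaving out each library, and edgeR 4.0.16 and DESeq2 1.42.0 on the recovered reads. The replicate numbers were not taken as pairs. Over 18 same-numbered pairs the correlation of deviations from the group means ran from -0.189 to 0.389, and 8 exceeded 0.1. Those of replicate 1 were all above 0 (0.179 to 0.389). Pairs with different numbers ran from -0.475 to 0.312. What the replicate numbers share across the groups was not tested beyond the block. Named genes were all members, Atf4, and genes of the lists that were called or had the smallest p. The members and lists were chosen with earlier results of these data known. The results of 1 mitochondrial gene, which the counts and medians over the members include, and 1 promoter site are not reported here. RefSeq windows (GRCm38.p6) gave the sequences. Depth was 25719476 to 29105147 reads per library.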

Additional observations from a re-analysis of the deposited data

Results flagged for a closer look

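The cold response of Vars was the single one among the 33 synthetase genes to differ between the genotypes at an unadjusted p under 0.05 in limma, with a difference of -0.56 (log2, Atf4AKO minus Atf4WT; adjusted p = 0.573). This is 1 of 33 genes, below the 6.92% of all genes at that threshold. Its normalized count was higher in 3 of 3 Atf4WT cold libraries than in any Atf4AKO cold library. With 1 library left out the difference ran from -0.74 (without Atf4WT cold replicate 0, adjusted p = 0.0897) to -0.44 (without Atf4WT cold replicate 2, adjusted p = 0.957), and the unadjusted p was above 0.05 in the latter fit, without Atf4WT RT replicate 1 (-0.48) and without Atf4AKO RT replicate 2 (-0.48). With the lymphocyte level as a covariate it was -0.012 (adjusted p = 0.999). The lymphocyte level was 7.07 to 9.55 in Atf4WT cold and 3.70 to 5.11 in Atf4AKO cold.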

How the results depend on the processing

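Of 466 recomputed counts and medians of the cytosolic and mitochondrial genes, 445 stayed close to the values reported. With the lymphocyte level as a covariate, the medians (log2) were 0.21 for cytosolic and 0.54 for mitochondrial genes for cold in Atf4WT. They were -0.19 and -0.23 between genotypes after cold, and -0.15 and -0.19 for the difference of the cold responses. The mitochondrial sign thus differed from the main fit in the last 2, where genotype and lymphocyte level cannot be told apart. In each of those comparisons 1 cytosolic gene (Aars) was then called. Scaling to the 75th percentile gave cytosolic medians of 0.037 for cold in Atf4AKO and -0.11 between genotypes after cold, and 1 cytosolic gene called for the difference. An adjusted p as the threshold gave 7 mitochondrial genes for cold in Atf4AKO. Without both cold replicates 2, chosen after seeing the data, the cytosolic median between genotypes after cold was -0.11. Leaving out 1 library in turn, the cytosolic median for cold in Atf4WT ran from 0.13 to 0.20, the mitochondrial genes called for cold in Atf4AKO from 2 (without Atf4AKO RT replicate 2) to 4, the cytosolic median between genotypes after cold from -0.074 to -0.027, and the cytosolic genes called between genotypes after cold and for the difference each from 0 to 1. The replicate block, under which 4 of 12 libraries correlated best with their own number, added Lars2 to the mitochondrial genes with an adjusted p under 0.05 in both genotypes (0.0255 and 0.0226), Pars2 in Atf4WT and the cytosolic Hars in both, and left 0 members between genotypes after cold. Over all genes the block gave 189 with an adjusted p under 0.05 in that comparison, against 4 without it. The mitochondrial median for cold in Atf4WT with the block was 0.28. Over all the alternatives, those above included, 3984 values of single genes (the members and Atf4) were called or not called as in the main fit. Most of these were called in neither. A further 32 gained a call and 30 lost it. Each value rests on 3 libraries per group.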

Other observations

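Wars, the cytosolic tryptophan enzyme, is known as an interferon-induced gene as well as an ATF4 target. Of 14 other interferon-induced genes, 3 fell with cold in Atf4WT and 8 in Atf4AKO iWAT (adjusted p under 0.05 in limma), against 14.9% and 11.0% of all genes, with median log2 fold changes of -0.31 and -0.51. Wars had log2 fold changes of 0.15 (95% interval -0.083 to 0.38) and 0.12 (-0.11 to 0.35) and thus did not pass the test in either genotype. Of 6 cytosolic elongation factor genes, 1 (16.7%) rose with cold in Atf4WT and 0 in Atf4AKO, near the 17.0% of all genes in Atf4WT and below the 14.8% in Atf4AKO, with median log2 fold changes of 0.11 and -0.04.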
